A study of Arabidopsis thaliana with 3 samples.

Results

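The data follow rosette leaves of the transgenic Arabidopsis line AhNF-YC-OE from normal growth to recovery after water stress. The measure is the change in 1 channel, Cy5, which carried the transgenic RNA on every array. Recovery was set over normal growth, so 2 of the 3 arrays of the series entered, and levels on the water stress array are given beside them. The plants were Col-0 and 5 weeks old, and were kept at 22 °C in a day of 16 h light and 8 h dark. Normal growth plants were watered, water stress lasted 5 days, and recovery leaves were taken 24 h after rewatering of plants that had been stressed for 8 days. By these labels the state after 8 days of stress, before rewatering, was not measured. The levels in the 3 states are therefore not a time course of the recovery plants. The genotype labelled Transgenic AhNF-YC-OE shared each array with wildtype RNA of the same state in the Cy3 channel, and the dyes were never exchanged. The sources used here do not give the promoter that drives the transgene, the number of lines or the pooling of plants, and no annotated feature names the transgene, so its own level was not measured. There was 1 array per state, so state and array cannot be told apart and no difference below carries a test or a p-value. RNA came from whole leaves, so fewer cells of a type and less RNA per cell cannot be told apart either.

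NF-YC is 1 of the subunits of NF-Y, the trimeric factor that binds the CCAAT box of promoters, and plants carry a gene family for each subunit. AhNF-YC comes from grain amaranth, Amaranthus hypochondriacus. Water shortage in leaves raises abscisic acid (ABA), which closes stomata and switches on genes for dehydrins, late embryogenesis abundant (LEA) proteins and osmolyte synthesis. On rewatering, ABA is broken down by the CYP707A hydroxylases, proline is oxidised again and growth resumes. Leaves 24 h after rewatering can therefore show which of the stress transcripts are still away from their watered level.

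Many spots stood at another level in recovery than in normal growth. Of 26014 genes above background in at least 1 of these states, 4216 were at least 2-fold higher in recovery (16.2%) and 4085 were at least 2-fold lower (15.7%). A change past 4-fold was found for 1027 genes upward and 1277 downward, and past 8-fold for 205 and 359. The median change was 0.04 on the log2 scale, and the middle 90% of genes lay between −1.98 and 1.83. The near balance of the directions follows the quantile normalization, which gives both channels 1 distribution. With the channels scaled to a common median instead, the median change of all genes was 0.63, and 9322 genes (35.8%) were higher and 2879 (11.1%) lower. Directions below are therefore relative to the other genes of the array.

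**Figure D1:**
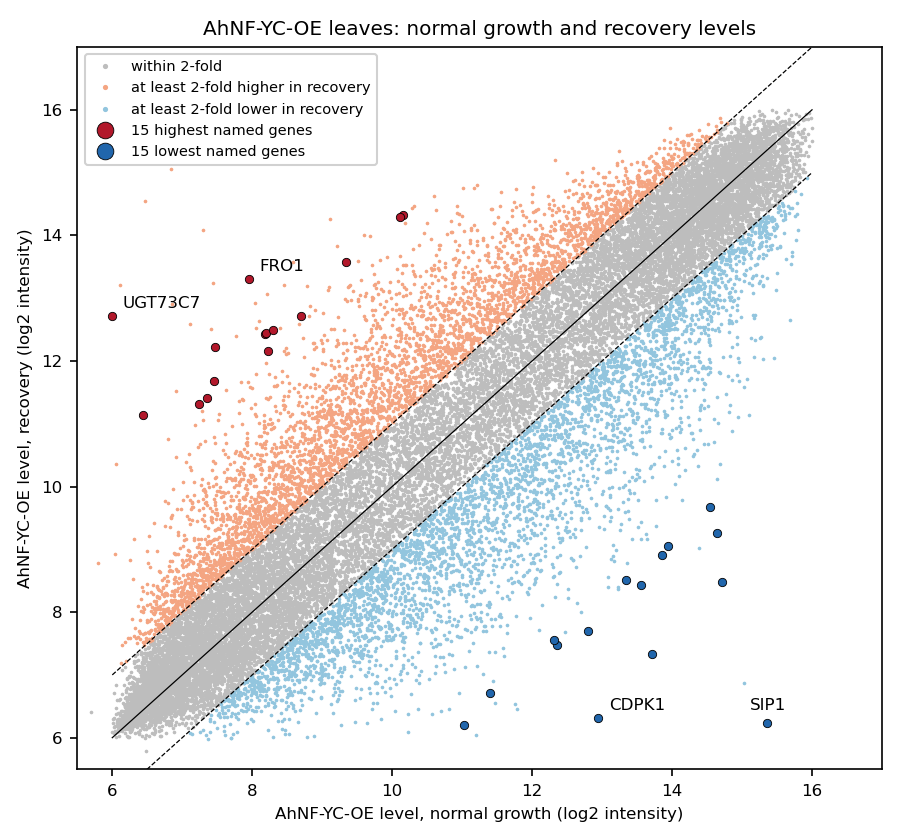
Each point is 1 gene of AhNF-YC-OE leaves, with its level in normal growth on the x axis and in recovery on the y axis, both in log2 intensity after normalization; dashed lines mark 2-fold. The 4216 higher and 4085 lower genes lie on both sides of the diagonal at all but the extreme intensities, and SIP1 stands alone at the lower right.

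Repeated measurements were available for 11 genes that the array prints on 12 or more control spots, in row 25 of the blocks. Between genes lay 66.3% of the variance of the 144 spot differences. The spots of 1 array are technical repeats, and the SD over them, with a median of 0.89, says nothing about the spread between plants.

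AT5G46430, annotated as the ribosomal protein gene RPL32B, was higher in recovery. Its 12 spots averaged 9.27 ± 0.60 (SD, n = 12 spots) in watered leaves, 12.19 ± 0.72 under water stress and 12.02 ± 1.22 in recovery, on the log2 scale. The recovery difference was 2.76 ± 1.32, and 11 of 12 spots were past 2-fold. AT2G17190, a ubiquitin family gene, was also higher, with 10.21 ± 0.56 in normal growth, 12.78 ± 0.32 under stress and 12.47 ± 0.81 in recovery. Its difference was 2.26 ± 0.92, and again 11 of 12 spots were past 2-fold. Every spot of both genes lay above 0, and in wild type on the same arrays the means were 2.33 and 1.84.

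ACX4, an acyl-CoA oxidase of peroxisomal fatty acid breakdown, was the lowest of the 11. Its spots averaged 13.35 ± 0.85 in normal growth, 12.03 ± 0.43 under stress and 11.93 ± 0.78 in recovery. All 12 spots lay below 0, with a mean of −1.41 ± 1.09, and 7 were past 2-fold. TUA1, an alpha-tubulin gene, averaged −1.02 ± 0.61 with 6 of 12 spots past 2-fold. Its mean was −0.93 with each print block centred on its own median, 0.16 with median scaling, and −0.48 in wild type. The other 7 genes had means within 2-fold. Among them ACT2, the actin gene often used as a reference, gave −0.34 ± 0.98 over 24 spots, of which 3 were higher and 7 lower by 2-fold or more. The tubulin genes TUB1 and TUB2 gave −0.48 ± 1.05 and 0.76 ± 0.72, and the plastid chaperone gene cpHsc70-2 gave 0.69 ± 0.82.

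**Figure D2:**
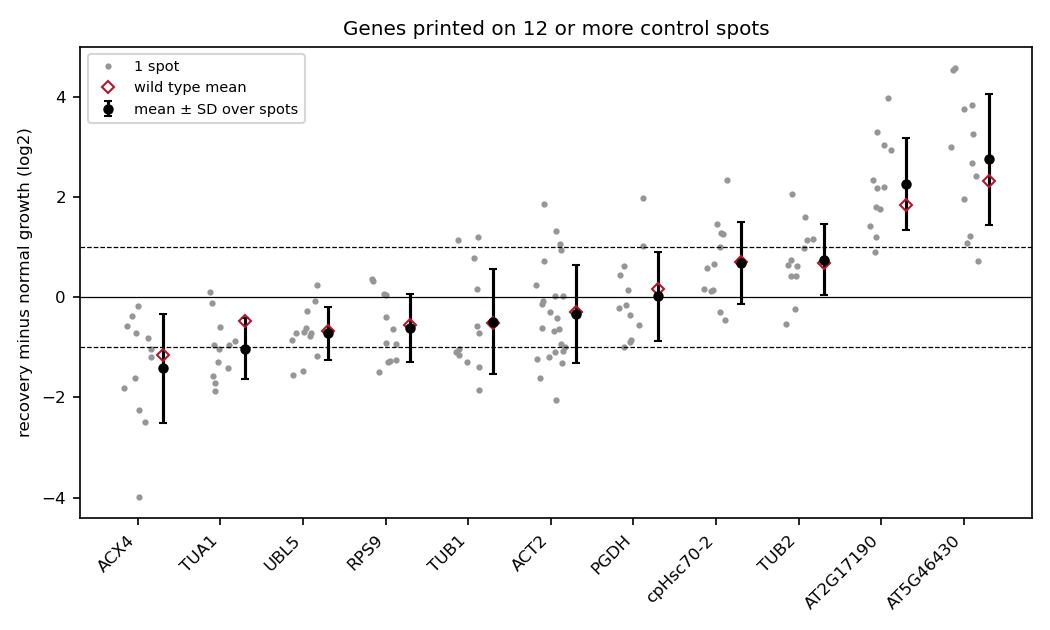
Recovery minus normal growth (log2) for the 11 genes printed on 12 or more control spots: grey points are single spots in AhNF-YC-OE, black points with bars the mean and SD over spots, and red diamonds the wild type mean. AT5G46430 and AT2G17190 lie above 0 with all their spots and ACX4 lies below 0 with all of its spots, while ACT2 spreads over both sides.

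Most other genes have 1 spot, and the names of those spots were less repeatable. Among 1464 transcripts annotated to exactly 2 spots, the recovery differences of the spots correlated at 0.10 (Pearson) and 0.10 (Spearman), as a description across transcripts. The levels correlated at 0.06 in normal growth and 0.08 in recovery. Where 1 spot was at least 2-fold higher, its partner was so in 18.8% of cases, against 16% of all spots in these pairs, and where 1 was lower its partner was lower in 22.1%, against 17.7%. Both spots were higher for 44 transcripts, both lower for 57, and they were past 2-fold in opposite directions for 72. The control genes also have library spots, and for 9 of the 11 their mean lay within the range of the gene's control spots, with −0.65 for RPS9 and 1.22 for AT2G17190. These ranges were wide, such as −2.05 to 1.87 for ACT2, so lying within them shows little. Library and control means had opposite signs for TUB1 (1.08 and −0.48), TUB2 (−0.34 and 0.76) and UBL5 (0.25 and −0.72). The same held for cpHsc70-2 (−0.14 and 0.69), ACT2 (0.25 and −0.34) and PGDH (−0.39 and 0.02), and the other genes had equal signs. The library mean lay outside the control range for AT5G46430, whose 3 library spots averaged 0.46. It also did for ACX4, whose single library spot was −4.04 beside a lowest control spot of −3.98. A gene name below is therefore the name that the deposited annotation gives to a spot, and a value from 1 spot describes that spot.

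**Figure D3:**
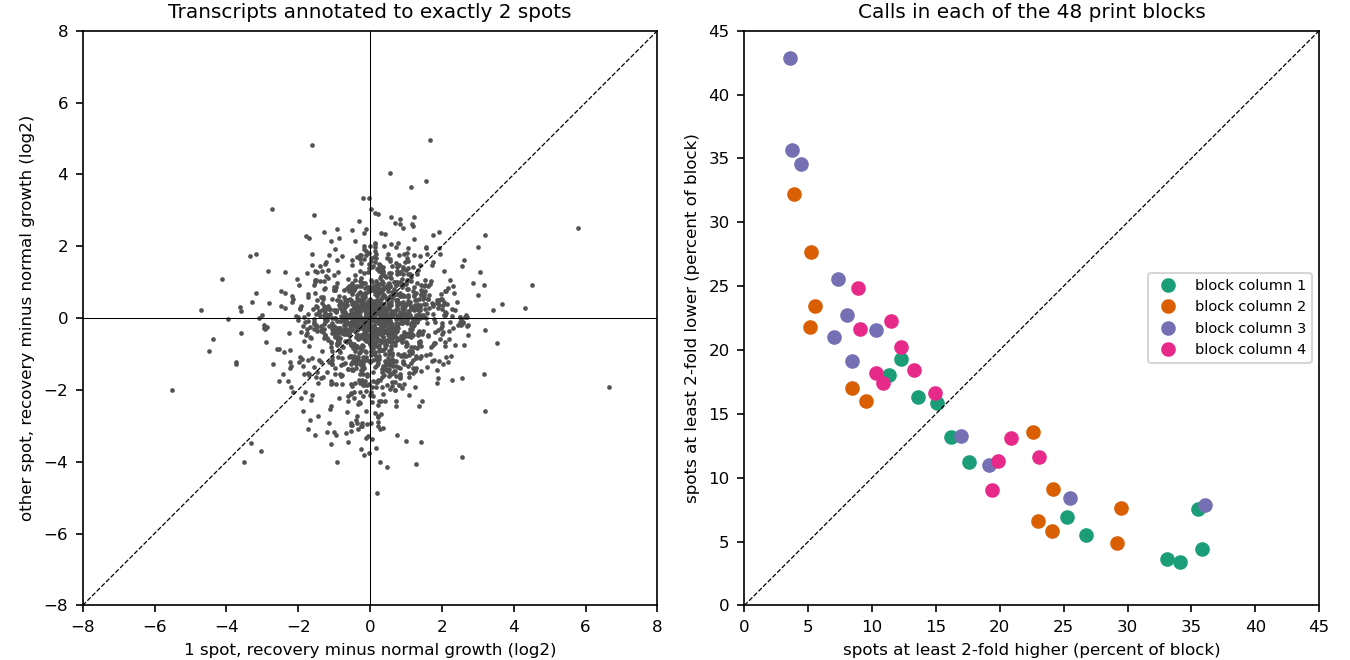
Left, recovery minus normal growth (log2) of both spots of the 1464 transcripts annotated to exactly 2 spots, with the line of equality dashed. Right, each point is 1 of the 48 print blocks, with the percent of its spots past 2-fold upward on the x axis and past 2-fold downward on the y axis; blocks run from 3.60% higher and 42.9% lower to 36.1% higher and 7.85% lower.

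Position on the slide moved with the calls. The share of spots past 2-fold upward was 16.4% over the array and ranged from 3.60% to 36.1% between print blocks, and the share lower was 16.3% and ranged from 3.43% to 42.9%. Within blocks the spots are laid out by chromosome, and rows 1 to 7 had 13.3% higher and 20.1% lower, against 18.8% and 14.1% in rows 20 to 25. Chromosome 1 loci made up 25.8% of the genes tested, 20.4% of the higher and 32.6% of the lower genes. Spot brightness moved with them too: when spots were ranked by brightness into 10 equal groups, 3.73% were higher in the brightest group and 27.3% in group 6. The part of position in any single gene's value was not tested, and values with each block centred on its own median are given below where they fall under 2-fold. Among features that hold no Arabidopsis gene, the median difference was above 0 for all 10 features labelled Alien (0.19 to 1.68, 6 of them past 2-fold) and for all 12 random negative controls (0.12 to 1.26, 1 past 2-fold), while the 510 empty spots had a median of −0.24.

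Brightness did not separate leaf genes from genes of other organs. In normal growth the median raw Cy5 intensity of gene spots was 3042, or 43.9 times the local background, and 45.1% of gene spots exceeded 95% of the 510 empty spots. In recovery the median was 962, or 16.3 times background, and 82.6% did. The limit set by the empty spots was 10.94 in normal growth and 7.51 in recovery, on the log2 scale. Of the light reaction genes, 19 of 43 passed this limit in normal growth and 37 in recovery. Of 9 root markers, 5 and 8 passed it, as did 5 and 8 of 9 seed markers, so the leaf label is not borne out by a higher share of bright spots among leaf genes. All 4 guard cell markers were above it in recovery and 3 in normal growth. Below, higher genes were held to the recovery limit and lower genes to the normal growth limit. A lower gene said not to exceed 95% of empty spots can thus be brighter than a higher gene without that remark.

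The genes with the largest increases were taken from 1578 genes (1044 higher, 534 lower). These passed filters on symbol, sign and brightness, and kept at least 2-fold with plain background subtraction, median scaling and block centring. The filters favour higher genes. Median scaling put the median of all genes at 0.63, and the brightness limit was 7.51 for higher and 10.94 for lower genes. Of all genes 16.2% were higher and 15.7% lower, so the excess of higher genes is not a result. All 30 genes named from the 1578 were at least 2-fold changed the same way in wild type, and 28 rest on 1 spot. Their water stress and recovery levels are both set against the same normal growth reading. A low or high reading there moves both differences the same way, so a shared direction is not an independent check.

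UGT73C7, a UDP-glycosyltransferase gene, was at 5.99 in normal growth, 13.59 under stress and 12.71 in recovery. It was not well above background in normal growth, with a raw intensity of 69.7 over a background of 67.5. The difference was therefore a bound, at least 6.69 on the log2 scale with quantile normalization, and it was 5.90 after block centring. FRO1 (FROSTBITE1), which encodes a subunit of mitochondrial complex I needed for cold responses, went from 7.95 in normal growth and 10.27 under water stress to 13.30 in recovery, a difference of 5.35. This spot was well above its stress level in recovery, whereas UGT73C7 was below it. GLY2, a glyoxalase II gene of methylglyoxal detoxification, was at 7.47, 11.90 and 12.22 in these states, a difference of 4.75. WRKY25, a transcription factor gene of heat and salt responses, was at 6.44, 10.39 and 11.13, a difference of 4.69. The water stress levels of GLY2 and WRKY25 lay closer to recovery than to normal growth.

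Among the next genes, MOM, which keeps repeated sequences silent, was at 8.20, 10.62 and 12.44 in normal growth, water stress and recovery. CPL1, a phosphatase of RNA polymerase II that restrains stress-induced transcription, was at 9.34, 12.50 and 13.57. Both spots were higher in recovery than under stress, with differences of 4.24 and 4.23 from normal growth. CYCB1;4, a B-type cyclin of mitosis, was at 10.15, 12.69 and 14.32, a difference of 4.17. RVE1, a MYB-like factor that links the clock to auxin, was at 7.24, 9.24 and 11.31, a difference of 4.07. PSB29, a plastid protein needed for thylakoid formation, stood at 8.22, 12.17 and 12.16, a difference of 3.94, with nearly equal levels under stress and in recovery. The rest were EMB506 (4.24), the kinase gene SR1 (4.22), the cytokinin response factor gene CRF7 (4.19), DOF4.5 (4.17), the proteasome subunit gene PAD2 (4.05) and the cation exchanger gene CHX23 (4.03). All 15 were at least 2-fold above the same normal growth reading under water stress too. UGT73C7, CPL1 and SR1 lay in a print block with 35.5% of spots higher, and FRO1 and WRKY25 in another with 29.4%. The share over the array was 16.4%, and EMB506 and CYCB1;4 lay in blocks below it, with 15.1% and 10.8%. Differences of the 15 were from 3.22 to 5.90 after block centring, and the part of slide position in them was not tested.

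The largest decrease was that of SIP1 (SEED IMBIBITION 1), annotated as a glycoside hydrolase of the raffinose synthase type. Its spot was at 15.35 in normal growth, 15.09 under stress and 6.24 in recovery, a difference of −9.11, and −8.74 in wild type. It was bright on 2 arrays, with raw intensities of 45645 and 33324, and at 62.8 over a background of 53.1 on the recovery array. Both channels of the recovery array were dim at this spot, and it was the only 1 of the 15 lowest genes that was not at least 2-fold lower under water stress. SIP1 and UGT73C7, the most extreme named genes, had no usable value on all arrays in the authors' normalized data.

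CDPK1 (CPK10), a calcium-dependent protein kinase that acts in stomatal responses to ABA, was at 12.95 in normal growth, 7.30 under stress and 6.31 in recovery, a difference of −6.64. XIB, a class XI myosin that moves organelles, was at 13.71, 8.21 and 7.34, a difference of −6.37. CSLD5, a cellulose synthase-like gene of wall formation, was at 14.71, 9.61 and 8.48, a difference of −6.22. All 3 were low under water stress too and lower in recovery. CDPK1 was near background in recovery, with a raw intensity of 69.4 over a background of 56.7. Its difference was −8.86 with plain subtraction, so its size depends on the background correction. ABCC5, an ABC transporter for inositol hexakisphosphate that affects guard cells, was at 14.65, 10.88 and 9.26, a difference of −5.39. HDA9, a histone deacetylase gene, was at 12.80, 8.43 and 7.70, a difference of −5.10. NSP1, a nitrile-specifier protein of glucosinolate breakdown, was at 13.86, 9.22 and 8.92, a difference of −4.94. In these 3 as well the level under stress lay between those of normal growth and recovery.

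The other low genes were TIF3H1 (−5.12), a subunit of translation initiation factor 3, PH1 (−4.89), DJ1B (−4.88), the cytochrome P450 gene CYP71B7 (−4.86), the Rab GTPase genes RA-5 (−4.84) and RABA1b (−4.68), NUDX26 (−4.82) and ACR11 (−4.77). NUDX26 was near background in recovery, with a raw intensity of 68.0 over 59.7, and was at −7.46 with plain subtraction. TIF3H1 has 3 spots that ran from −5.12 to −0.78, and those of ACR11 ran from −4.77 to 0.01. Of the 15 lowest genes, 11 lie on chromosome 1 (73.3%), 9 in row 1 or 2 of a block, and 7 in block column 3 of block rows 7 to 10, which includes the 3 blocks with the highest share of lower spots. Their differences were from −9.93 to −3.34 after block centring. The part of slide position in them was not tested further.

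**Figure D4:**
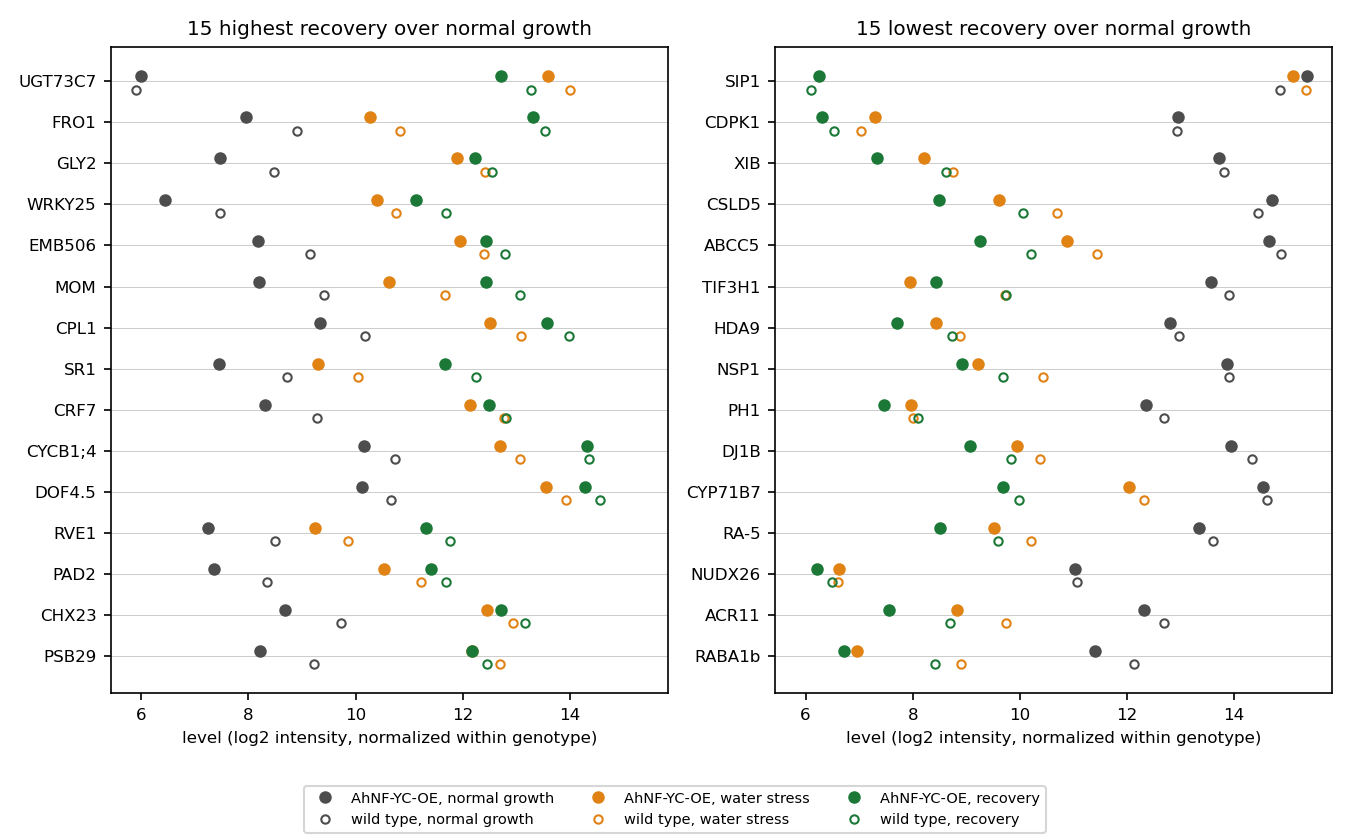
Levels (log2 intensity, normalized within each genotype) of the 15 highest and 15 lowest named genes in normal growth, water stress and recovery; filled points are AhNF-YC-OE and open points wild type. In every gene the wild type recovery level lies on the same side of its normal growth level as in AhNF-YC-OE, and SIP1 is the only low gene whose water stress level is near that of normal growth.

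Loci with 3 or more spots allow spots that share a name to be set side by side. Of 1092 such loci, 24 (2.2%) had every spot at least 2-fold changed the same way, 8 higher and 16 lower. Of all single spots, 16.4% were higher and 16.3% lower, and the share of loci that unrelated spots would give was not worked out. These loci were picked because their spots agree. Every one of these loci has all its spots in 1 row within the blocks. All but FIP2, RPL24 and AT5G57340 also have them in 1 block column, such as OEP37 (row 10, column 3) and JMJD5 (row 13, column 3). Spots of a locus thus share part of their slide position. Those of FIP2 and RPL24 all lie in row 24, in the same blocks. Among the higher ones, FIP2, a formin-interacting protein, had spots between 1.60 and 1.78, and its spots stayed between 1.21 and 1.58 after block centring. CYP82G1, which makes a volatile homoterpene, had spots between 1.07 and 1.96, and WDL1, a microtubule-associated protein, between 1.06 and 2.22. RPL24, a plastid ribosomal protein gene, had spots between 1.01 and 2.06. Among the lower ones, SPL8, a transcription factor of anther and shoot development, had spots between −3.22 and −1.07. The jumonji gene JMJD5, which is clock-controlled, had spots between −2.70 and −1.27. PDIL5-1, a protein disulfide isomerase-like gene, had 4 spots between −4.02 and −1.53, and OEP37, a channel of the plastid outer envelope, 4 between −2.22 and −1.14. After block centring, 8 of the 24 loci still had all spots past 2-fold, 4 higher and 4 lower; FIP2, CYP82G1, WDL1 and SPL8 were among them, and RPL24, JMJD5, PDIL5-1 and OEP37 were not.

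The members of 23 gene lists for drought, hormones, photosynthesis and other processes together were near the background of the array. Of 368 listed genes, 68 were at least 2-fold higher (18.5%, against 16.2% of all genes) and 47 at least 2-fold lower (12.8%, against 15.7%), with a median of 0.12. The medians of the lists with 4 or more members ran from −0.33 for ABA turnover to 0.45 for the seed markers. Counts in single lists are small, and their shares below are to be read beside 16.2% higher and 15.7% lower of all genes. No list was tested against these shares.

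**Figure D5:**
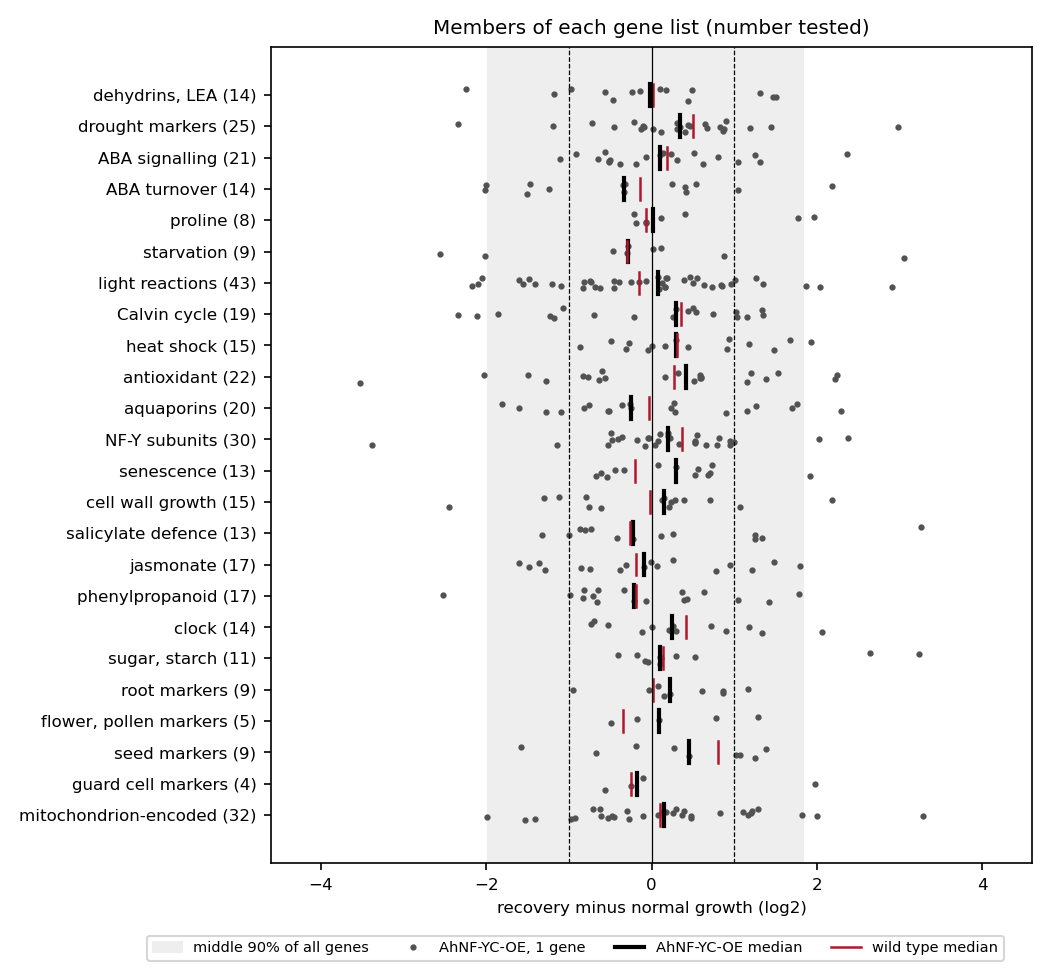
Recovery minus normal growth (log2) of the members of each gene list in AhNF-YC-OE, with the list's median in black and the wild type median in red; the grey band is the middle 90% of all genes, from −1.98 to 1.83, and dashed lines mark 2-fold. Each list spreads over both sides of 0, and the list medians lie between −0.33 and 0.45.

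Dehydrins and LEA proteins protect membranes and proteins in drying cells. Of 14 measured, 3 were at least 2-fold higher (21.4%, beside 16.2% of all genes) and 2 lower (14.3%, beside 15.7%). The median was −0.02. LTI30 was at 11.55 in normal growth, 12.96 under stress and 13.05 in recovery, a difference of 1.505, and 1.14 after block centring. COR47 was at 7.75, 10.54 and 9.06, a difference of 1.31, and ERD10 was at 9.29, 11.50 and 10.77, a difference of 1.47 with its 3 spots from 0.90 to 1.498. COR47 and ERD10 thus lay between their normal growth and stress levels, and with block centring they were at 0.49 and 0.99. SAG21, a mitochondrial LEA protein that also marks senescence, was at 12.22, 9.76 and 9.97, a difference of −2.25. ERD14 was at 13.84, 12.81 and 12.66, a difference of −1.17. The other 9 lay within 2-fold, from −0.97 for COR15A, whose 3 spots ran from −1.85 to −0.09, to 0.48 for LEA7. RAB18, a dehydrin induced by ABA, was at 14.28, 14.88 and 14.04.

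Among 25 other drought marker genes, 3 were higher (12%, beside 16.2% of all genes) and 2 lower (8%, beside 15.7%). The median was 0.35. NAC055, a NAC factor induced by drought and jasmonate, was at 10.09 in normal growth, 13.13 under stress and 13.08 in recovery, a difference of 2.98, and 2.64 in wild type. ABF2, a bZIP factor that binds ABA-response elements, was at 9.04, 10.56 and 10.48, a difference of 1.44, and KIN1 was at 6.47, 7.40 and 7.66, a difference of 1.19. Block centring brought ABF2 to 0.83 and KIN1 to 0.37. ERD6, a sugar transporter of the tonoplast, was lower, at 14.81, 12.49 and 12.47, a difference of −2.34. NAC019, which is closely related to NAC055, was at 8.17, 6.80 and 6.99, a difference of −1.19 in AhNF-YC-OE and −0.14 in wild type; it did not exceed 95% of empty spots, and it was at −0.74 with median scaling. The standard marker RD29A was at 15.51, 15.92 and 15.63 and RD29B at 10.69, 11.51 and 11.57, with differences of 0.11 and 0.88. RD20, RD22, DREB2A, HB-12 and GolS1 had differences of 0.31, 0.02, −0.46, 0.87 and −0.11. In RD26 and ERD15, whose brightest transcripts had 0.67 and 0.91, the lowest spots were at −0.31 and −2.43.

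Of 14 genes of ABA turnover, 5 were lower (35.7%, beside 15.7% of all genes) and 2 higher (14.3%, beside 16.2%), with a median of −0.33; after block centring 4 were lower and 1 higher. CYP707A1, an ABA 8'-hydroxylase that starts ABA breakdown, was at 11.50 in normal growth, 9.60 under stress and 9.49 in recovery, a difference of −2.01, although its 3 spots ran from −2.30 to 0.72. CYP707A3 was at 13.13, 11.56 and 11.66, a difference of −1.47 with spots from −1.83 to −0.11. CYP707A2 was at 9.72, 8.61 and 8.48, a difference of −1.23, which became 0.10 after block centring. In normal growth, its brighter state, it did not exceed 95% of empty spots, but in recovery it did. CYP707A4 was higher, at 6.60, 7.16 and 7.65, a difference of 1.05, and 0.69 after block centring. By the brightest transcript, whose spots were averaged, 3 of the 4 hydroxylase genes were thus lower in recovery than in normal growth and 1 was higher. NCED2, a dioxygenase of ABA synthesis, was at 8.92, 10.97 and 11.10, a difference of 2.18, and NCED9 at 8.99, 7.35 and 6.99, a difference of −2.001 on a spot that did not exceed 95% of empty spots. NCED3, the member of that family best known for drought-induced ABA synthesis, was at 12.97, 13.03 and 12.62, a difference of −0.35. AAO3, the aldehyde oxidase of the last step, was at 11.44, 10.81 and 9.93, a difference of −1.51.

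In ABA signalling, 4 of 21 genes were higher (19%, beside 16.2% of all genes) and 1 was lower (4.76%, beside 15.7%). The median was 0.11. HAB1, a type 2C phosphatase that holds the pathway off, was at 8.14 in normal growth, 9.75 under stress and 10.50 in recovery, a difference of 2.36, and AHG1, of the same type, was at 12.96, 13.94 and 14.26, a difference of 1.31. The receptor genes PYL8 and PYL9 differed, with 1.25 and −1.11. PYL8 has 2 spots at 0.53 and 1.97, and PYL9 (RCAR1) was at 0.11 after block and row centring. AHG1, PYL8 and PYL9 were within 2-fold after block centring, at 0.74, 0.78 and −0.38.

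For proline, the osmolyte that leaves store in drought, 2 of 8 genes were higher (25%, beside 16.2% of all genes). Lower were 0 (beside 15.7%), and the median was 0.02. The higher ones were the transporter genes. ProT1 was at 11.29 in normal growth, 12.60 under stress and 13.25 in recovery, a difference of 1.96, and ProT2 was at 12.96, 14.12 and 14.72, a difference of 1.77 with spots from −0.17 to 1.77. The synthesis gene P5CS1 was at 13.19, 13.15 and 13.12 and ProDH1, the dehydrogenase known for its induction on rehydration, at 13.26, 12.87 and 13.07. Their differences were −0.07 and −0.19, so neither was past 2-fold.

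Photosynthesis genes past 2-fold lay in both directions. Of 43 genes of the light reactions, 6 were higher (14%, beside 16.2% of all genes) and 9 lower (20.9%, beside 15.7%). The median was 0.08. FNR1, the ferredoxin-NADP reductase gene, was at 10.32 in normal growth, 12.69 under stress and 13.23 in recovery, a difference of 2.91. PSBP1, of the oxygen-evolving complex, was at 14.82, 14.21 and 12.65, a difference of −2.17, and LHCB5, a minor antenna protein, was at 12.55, 11.13 and 10.46, a difference of −2.10. PSBP1 was thus lower in recovery than under stress. PETE2, a plastocyanin gene that did not exceed 95% of empty spots, had −2.05, −0.71 after block centring, and −0.38 in wild type. Of 19 Calvin cycle genes, 5 were higher (26.3%) and 6 lower (31.6%), with a median of 0.30. GAPA2 (−2.34), RBCS2B (−2.11) and CP12-1 (−1.86) had the largest decreases, of which GAPA2 and RBCS2B did not exceed 95% of empty spots. RCA, rubisco activase, was at 13.79, 14.49 and 15.14, and its 4 spots ran from 0.75 to 2.12. After block centring the Calvin cycle counts were 2 higher and 4 lower.

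Of 30 of the plant's own NF-Y genes, 2 were higher (6.67%) and 2 lower (6.67%), with a median of 0.20, beside 16.2% and 15.7% of all genes; this difference was not tested. After block centring 4 were higher and 3 lower, and in wild type 5 were higher and 2 lower. NF-YC4 was at 7.76 in normal growth, 9.23 under stress and 10.14 in recovery, a difference of 2.38. NF-YC3, also of the C subunit family, was at 13.75, 10.81 and 10.36, a difference of −3.38, and −2.33 in wild type. NF-YA9 was at 8.76, 10.36 and 10.78, a difference of 2.02. NF-YC6 was at 15.51, 14.37 and 14.37, a difference of −1.14 that was −0.47 after block centring and turned to 0.14 with median scaling.

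Heat shock genes had 4 of 15 members higher (26.7%, beside 16.2% of all genes) and 0 lower (beside 15.7%). Their median was 0.30. HSP21, a small plastid chaperone, was at 8.23 in normal growth, 8.81 under stress and 10.16 in recovery, a difference of 1.92. HSP90.2 had 1.67, the heat shock factor genes HSFB1 1.48 and HSFA3 1.18. The last pair was at 0.86 and 0.61 after block centring.

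Of 22 antioxidant genes, 6 were higher, 4 were lower and the median was 0.42. FSD1, an iron superoxide dismutase, was at 12.28, 9.28 and 8.76 in normal growth, water stress and recovery, a difference of −3.52, but its other spot was at 0.27. APX3, a peroxisomal ascorbate peroxidase, had 2.24, ZAT10, a zinc finger factor of oxidative stress, 2.22, and DHAR2, a dehydroascorbate reductase, −2.03. Of 20 aquaporins, 5 were higher (25%) and 4 lower (20%), with a median of −0.25. PIP2;6 was at 8.76, 11.20 and 11.04, a difference of 2.29. PIP2;2 was at 9.74, 8.65 and 7.93, a difference of −1.81. Its spot did not exceed 95% of empty spots in normal growth but did in recovery.

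In the salicylate list 4 of 13 genes were higher (30.8%, beside 16.2% of all genes) and 1 lower (7.69%, beside 15.7%). Its median was −0.23. EDS5, the transporter for salicylate synthesis, was at 9.07, 11.21 and 12.33 in normal growth, water stress and recovery, a difference of 3.26, and WRKY70 was at 14.28, 15.34 and 15.62, a difference of 1.34. NPR1, the salicylate receptor, had −1.32 on a spot that did not exceed 95% of empty spots in normal growth. It had −0.24 after block centring and 0.12 after block and row centring. Of 17 jasmonate genes, 3 were higher and 4 lower, with JAZ6 at 1.79 and OPR3 at −1.60. Sugar and starch genes held 2 higher members and 0 lower of 11: SUS3, a sucrose synthase, was at 10.29, 13.01 and 13.52, a difference of 3.24, and TPS5, of the trehalose phosphate synthase family, at 8.31, 10.31 and 10.95, a difference of 2.65. The starvation list held BCAT2, of branched-chain amino acid breakdown, at 7.02, 8.62 and 10.07, a difference of 3.05, beside DIN10 with −2.56.

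Clock genes had 3 of 14 higher (21.4%, beside 16.2% of all genes) and 0 lower (beside 15.7%). The higher ones were RVE8 (2.06), TOC1 (1.33) and CCA1 (1.18). CCA1 peaks at dawn and TOC1 at dusk, and both were above their normal growth level. Cell wall growth genes had 2 higher (13.3%) and 3 lower (20%) of 15. EXPA4 was at 2.18 and EXPA1 at −2.45, and both spots of EXPA1 were past 2-fold. Phenylpropanoid genes had 3 higher and 1 lower of 17, with PAL2 at 1.78 and TT7 at −2.52. Senescence genes had 1 higher (7.69%) and 0 lower of 13, the chlorophyll breakdown gene RCCR at 1.91. Seed markers had 4 higher (44.4%) and 1 lower (11.1%) of 9. The storage protein gene CRA1 was at 12.63, 13.95 and 14.01 in normal growth, water stress and recovery. Its difference was 1.38, and 0.61 after block centring. Block centring left 1 seed marker higher. Root markers had 1 higher of 9 (SHR, 1.17), or 11.1%, and flower markers 1 of 5 (AP3, 1.29), or 20%. Of 32 mitochondrion-encoded genes, 8 were higher (25%) and 3 lower (9.38%). Their median was 0.15, with values from −1.99 for ATMG01250 to 3.28 for ATMG00910.

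Wild type on the same arrays gives the nearest comparison. In wild type 3868 genes were at least 2-fold higher in recovery (14.9%) and 3821 lower (14.7%). Of the genes higher in AhNF-YC-OE, 3286 were higher in wild type, which is 77.9% of the first list and 85% of the second, and of the lower genes 3369 were shared, 82.5% and 88.2%. No gene was past 2-fold in opposite directions. The differences of both genotypes correlated at 0.96 across genes (Pearson) and 0.94 (Spearman), a description over 26012 genes whose channels share spots and arrays. The signed difference of AhNF-YC-OE lay at least 2-fold above that of wild type for 22 genes and at least 2-fold below it for 240. The SD of the differences was 1.15 in AhNF-YC-OE and 1.06 in wild type. Since the genotypes share the slide and the dyes were not exchanged, a common biological change and a common array difference cannot be told apart here.

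Under water stress 3746 genes were at least 2-fold higher than in normal growth (14.4%) and 3731 lower (14.3%) in AhNF-YC-OE. This comparison uses the same normal growth channel as recovery, so the values of both are only set side by side. Medians of the lists under stress and in recovery were 0.09 and −0.02 for dehydrins and LEA proteins, 0.38 and 0.35 for drought markers, and 0.43 and 0.02 for proline genes. They were 0.20 and 0.08 for the light reactions and 0.58 and 0.25 for the clock genes. Other lists had the lower median under stress, with −0.06 and 0.11 for ABA signalling, 0.20 and 0.42 for antioxidant genes, 0.13 and 0.29 for senescence genes, and −0.19 and 0.45 for seed markers. The counts of light reaction genes were 11 higher and 4 lower under stress, against 6 and 9 in recovery.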

How the data were processed

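Rosette leaf RNA was measured on 3 two-colour arrays, 1 per state; the growth states follow the labels. The deposited scanner files give, per the file headers, the mean intensity of each of 30000 spots and of its local background with its SD; the sources used here name no scanner or software. The authors also deposited a normalized intensity per channel, whose method is not given, used as an alternative for the 27411 transcripts present on all arrays. Background was corrected with normexp (offset 50) and the 3 Cy5 channels were quantile normalized on the 29234 spots with a gene locus code (limma 3.58.1, R 4.3.3), the Cy3 channels likewise. Spots of a transcript were averaged and the brightest transcript stood for a locus, with 26017 loci. A gene entered when, in at least 1 state, its spot exceeded the mean of its local background by over 2 SD. A spot below this in the dimmer state gives a bound: its level was raised to the lowest level among spots above background, if below it. Genes were called at 2-fold, with no test, since each state has 1 array; the number of arrays limits the precision. The script was tested on simulated data. Per the file headers, locus codes come from TAIR release 7 and TIGR release 5; RefSeq (TAIR10.1) gave names for 25818 loci, and 371 of 377 listed genes matched, 6 being dropped.

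Named genes were the 15 highest and 15 lowest among genes with a RefSeq symbol, all transcripts of 1 sign, brighter in the brighter state than 95% of the 510 empty spots, and at least 2-fold the same way with plain subtraction, median scaling and block centring. Beyond these came up to 4 members per list past 2-fold, members of the dehydrin, drought marker, proline and ABA turnover lists, and loci with at least 3 spots all past 2-fold, where spots were counted in place of transcripts. The genes on at least 12 spots, FSD2 and LHCB4.2 were chosen after their values were seen. Members and lists were chosen with earlier results of these data known. Lists of ribosomal protein genes, made from words of the array annotation, had 3 cytosolic and 1 plastid member, and 1 plastid-encoded gene was measured; these are not described. Alternatives were other background corrections, normalizations, filters and probe rules, and centring by block or, chosen after seeing the data, by block and row. Figures and tables used Python 3.11.15, pandas 2.3.3 and matplotlib 3.10.9.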

Additional observations from a re-analysis of the deposited data

Results flagged for a closer look

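For 6 gene lists the median of recovery minus normal growth (log2) had opposite signs in the 2 genotypes, and in none was the difference between genotypes tested. It was −0.0174 in AhNF-YC-OE and 0.0173 in wild type for dehydrins and LEA proteins, and 0.0219 and −0.0619 for proline genes. For the light reactions it was 0.0827 and −0.156, and for cell wall growth 0.156 and −0.0223. For senescence genes it was 0.294 and −0.200, and for flower and pollen markers 0.0892 and −0.339.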

How the results depend on the processing

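With median scaling in place of quantile normalization, 9322 genes were at least 2-fold higher in AhNF-YC-OE recovery, 10984 higher and 2436 lower in wild type recovery, and 10605 higher in AhNF-YC-OE under water stress. Over genes above the median intensity alone, where fewer genes are tested, the counts were 2174 higher and 2077 lower in AhNF-YC-OE recovery, 2046 and 2000 in wild type, and 1908 and 1858 under water stress. The other counts over all genes stayed within 1.5 times their value under each alternative run. Counts in the lists are small, and block centring moved some further: to 1 dehydrin or LEA gene higher, 5 drought markers lower, 0 ABA signalling genes lower, 2 starvation genes higher, 1 cell wall growth gene higher and 1 lower, 2 salicylate genes lower, 1 jasmonate gene higher and 2 lower, 3 phenylpropanoid genes lower, 1 senescence gene lower and 2 root markers higher, besides those in the results. Median scaling raised the medians of 4 lists by more than the SD of the list, to 1.02 for ABA signalling, 1.07 for senescence, 1.41 for clock and 0.90 for root markers, beside 0.63 for all genes. Of 156 named or listed genes past 2-fold, 43 were no longer past 2-fold the same way after block centring, 47 after block and row centring (chosen after seeing the data) and 13 with median scaling, and 18 of the 142 with deposited normalized values from the authors. Reversed values were those of RCAR1 (0.11), FSD2 (−0.0480) and NPR1 (0.12) with block and row centring, CYP707A2 (0.10) with block centring, LHCB4.2 (−2.02) with the mean over all probes, and NF-YC6 (0.14) with median scaling; beyond the alternative's own construction the cause was not tested. No paired analysis was possible because each state has 1 array. No promoter motif was searched.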
